A study of Drosophila melanogaster with 10 samples.

Results

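The glutathione S-transferase genes of Drosophila were described here by their RNA levels in S2 cells, a line derived from fly embryos that has features of blood cells. Members were the genes whose symbol names a class D, E, O, S, T or Z glutathione S-transferase, together with se, an omega class gene under its eye colour name, and Mgstl, the microsomal member. There were 37 such genes among 15240 gene symbols, with 50 of the 30551 transcript rows. By class, 11 were delta (D), 14 epsilon (E), 4 omega (O, with se), 1 sigma (S), 4 theta (T), 2 zeta (Z) and 1 microsomal.

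The study examined how polymerization of Polyhomeotic (Ph), a Polycomb group protein, affects chromatin and gene expression, and its series holds 10 samples in 5 groups of 2 replicates. The 2 S2 RNA libraries were analysed here, and the 8 chromatin immunoprecipitation and input libraries of cells that express Ph-WT or Ph-ML were not analysed here. S2 cells of the RNA group carried the genotype WT, with neither transgene, and were grown at 27 °C in ESF-921 medium. Copper sulphate was present at 0.5 mM for 3 days, the agent that induces the transgenes in the other lines. A line without copper was not analysed here, so the effect of copper on these genes was not measured. S2 cells are an established line kept in culture, so these levels describe that line and not a tissue of the fly.

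Glutathione S-transferases join the tripeptide glutathione to reactive or foreign compounds, which makes those compounds soluble and ready for export. The delta and epsilon classes are particular to insects and their relatives, arose largely by tandem duplication, and are known for detoxification and insecticide resistance. Omega enzymes carry a cysteine at the active site and act mainly as thiol transferases. Zeta enzymes take part in tyrosine breakdown, while Mgstl belongs to a separate family of membrane proteins.

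Levels were given as RPKM, reads scaled to the length of the transcript and to the size of the library, so that genes of different length can be set side by side. The level of a gene was the median over its transcript rows in each library, and errors are the SD over the 2 libraries. Steps left by whole reads gave library sizes of 37054213 reads for replicate 1 and 9495835 for replicate 2. On a transcript of 1 kb, 3 reads give 0.0810 RPKM at the depth of replicate 1 and 0.316 RPKM at that of replicate 2. Whole reads were recovered for 99.7% of the 27351 rows above 0 and for all 50 member rows, as the smallest numbers that fit the values. With 1 group, no test across samples was possible, and intervals and limits from reads cover counting error only.

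The cells were checked against markers of their labelled type. Among 6 blood cell genes, 5 reached 1 RPKM, with Pvr at 71.1 ± 2.15 RPKM, crq at 30.5 ± 2.24 RPKM, eater at 12.4 ± 0.891 RPKM and srp at 5.75 ± 0.0422 RPKM (SD, n = 2). Of the haemocyte genes Hml and Pxn, Hml was just above the minimum at 1.18 ± 0.0543 RPKM and Pxn was below it at 0.398 ± 0.185 RPKM. None of 14 genes of fat body, gut, tubule and eye, where many glutathione S-transferases are known to be abundant, reached 1 RPKM (0 of 14). Summed over these genes the level was 1.51 and 0.794 RPKM in replicates 1 and 2, and the trypsin genes alphaTry and betaTry were listed at 0 in both.

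Most of the family was expressed. Of the 37 genes, 28 had a mean of 1 RPKM or more (75.7%), against 49.5% of all 15240 genes and 50.9% of the 13929 protein-coding genes. The higher level of 5 RPKM was passed by 18 members (48.6%), against 29.5% of all genes and 30.4% of protein-coding genes. The median level of the family was 4.56 RPKM, with 5.05 and 4.11 RPKM in replicates 1 and 2 (SD 0.668, n = 2). Over all genes the median level was 0.898 RPKM, and over protein-coding genes 1.11 RPKM. Among the 28 members at 1 RPKM or more the median was 8.22 RPKM, against 6.31 RPKM for all genes at that minimum.

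**Figure D1:**
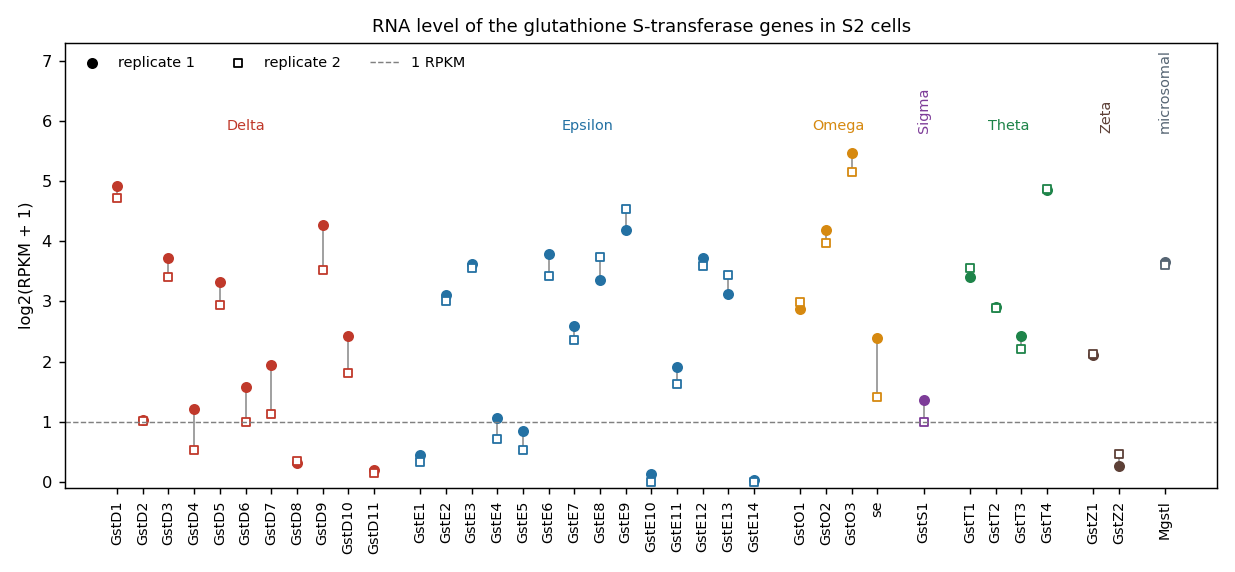
Level of each of the 37 glutathione S-transferase genes, on the scale of log2(RPKM + 1), with filled circles for replicate 1, open squares for replicate 2 and a dashed line at 1 RPKM. GstO3 stood highest, at 43.0 and 34.7 RPKM, and GstE14 lowest, at 0.0268 RPKM and 0.

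The order of the levels was clear at the top and blurred below. GstO3 had 43.0 and 34.7 RPKM in replicates 1 and 2, a mean of 38.8 ± 5.90 (SD, n = 2), above 96.3% of all genes. GstT4 followed at 27.7 and 28.2 RPKM, and GstD1 at 29.3 and 25.5 RPKM. The values of these latter genes overlapped, while both libraries of GstO3 lay above both of GstT4. GstE9 came next at 17.3 and 22.1 RPKM, below both values of GstD1. Of the 36 pairs of neighbours in the order of mean level, 8 had replicate values that did not overlap and 28 had values that did. From GstO2, at 15.9 ± 1.67 RPKM, down to GstE2, at 7.32 ± 0.406 RPKM, every neighbouring pair overlapped, so neighbours among these 12 genes were not resolved.

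The delta genes lie next to each other in the genome, with a single other protein-coding gene between GstD8 and GstD11 in the RefSeq annotation of Release 6. The reads had been aligned to another release, so this annotation served for gene order only and no positions are given. GstD1, whose enzyme is known to break down DDT, was the highest delta gene at 27.4 ± 2.71 RPKM (SD, n = 2). Its neighbour GstD9 had 18.3 and 10.4 RPKM in replicates 1 and 2, and GstD10 next to that had 4.35 and 2.52 RPKM. On the other side of GstD1 the level was low at once, at 1.03 and 1.004 RPKM for GstD2. GstD1 exceeded GstD2 by 28.5 times in replicate 1 and 25.3 times in replicate 2, where GstD2 rested on 28 and 7 reads.

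From GstD2 to GstD6 high and low genes alternated in both libraries. GstD3 had 12.2 and 9.60 RPKM and GstD5 had 8.996 and 6.63 RPKM in replicates 1 and 2. The genes beside them were far lower, with GstD4 at 1.31 and 0.437 RPKM and GstD6 at 1.98 and 1.002 RPKM. GstD3 thus exceeded GstD2 by 11.9 and 9.56 times, and GstD5 exceeded GstD6 by 4.54 and 6.62 times. At least 169 reads lay on GstD3 and 217 on GstD5 in replicate 1, against 35 on GstD4, so the contrast did not rest on a handful of reads in that library. In replicate 2 GstD4 rested on 3 reads, and GstD2 and GstD6 on 7 reads each.

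The lowest delta levels were those of GstD8 and GstD11, at the far end of the cluster. GstD7 had 2.86 and 1.17 RPKM, GstD8 0.238 and 0.266 RPKM, and GstD11, beyond the intervening gene, 0.145 and 0.113 RPKM. GstD8 rested on 7 reads in replicate 1 and 2 in replicate 2, and GstD11 on 5 and 1. Replicate 2 values of GstD8 and GstD11 lay under the level of 3 reads on their transcripts, 0.398 and 0.377 RPKM. Delta genes are close paralogues, and how reads that fit several copies were counted is not stated, so differences among neighbours are uncertain to that extent.

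**Figure D2:**
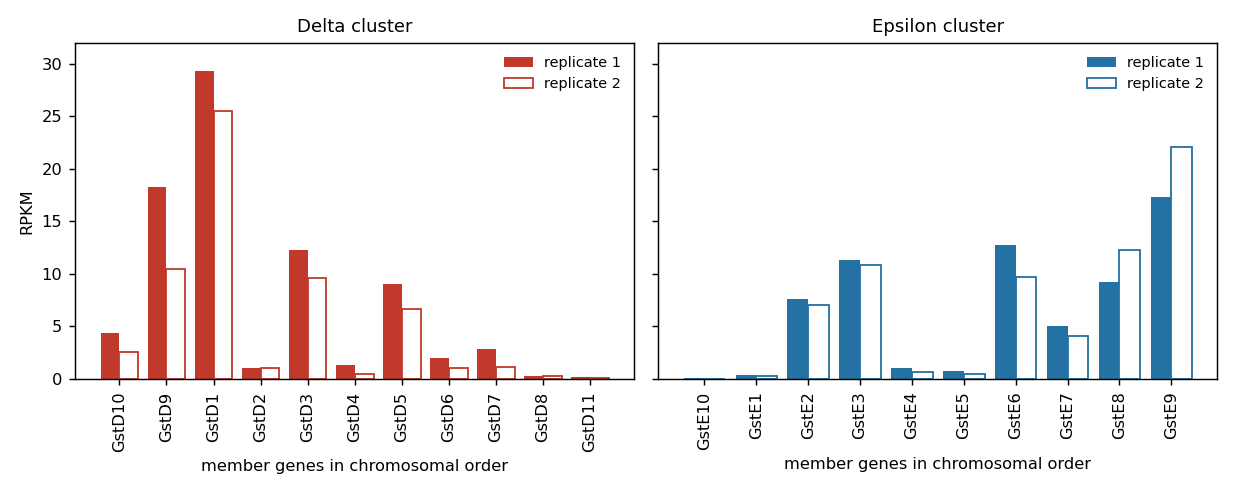
RPKM of the delta genes (left) and of the epsilon genes of the tandem cluster (right) in chromosomal order, with filled bars for replicate 1 and open bars for replicate 2. Delta levels peaked at GstD1 and alternated from GstD2 to GstD6, while epsilon levels were high in 2 blocks, GstE2 with GstE3 and GstE6 to GstE9.

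Of the 14 epsilon genes, 10 form a tandem cluster that runs from GstE10 through GstE1 to GstE9, and the other 4 lie elsewhere. GstE9, at the end of the cluster, was the highest epsilon gene at 19.7 ± 3.38 RPKM (SD, n = 2). GstE8 beside it had 9.18 and 12.3 RPKM, GstE7 5.05 and 4.11 RPKM and GstE6 12.8 and 9.70 RPKM. A second expressed stretch held GstE2, at 7.61 and 7.04 RPKM, and GstE3, at 11.3 and 10.8 RPKM. Between these stretches GstE4 had 1.08 and 0.641 RPKM and GstE5 had 0.788 and 0.439 RPKM. GstE3 exceeded GstE4 by 10.4 and 16.8 times, and GstE6 exceeded GstE5 by 16.2 times in replicate 1, where GstE5 had 21 reads. In replicate 2 GstE4 had 5 reads and GstE5 had 3 reads. How reads that fit several copies were counted is not stated for these tandem genes either. Differences among epsilon neighbours are uncertain to that extent.

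At the other end of the cluster, GstE1 was at 0.357 and 0.253 RPKM. GstE10 was at 0.0911 RPKM in replicate 1, on 3 reads, and listed at 0 in replicate 2, which at 3 reads allows up to 0.355 RPKM. GstE2 exceeded GstE1, its neighbour, by 21.3 times in replicate 1, where GstE1 rested on 11 reads. Cluster genes at 1 RPKM or more numbered 6 of 10 (60%, against 49.5% of all genes).

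Outside the cluster, GstE12 had 12.1 and 11.0 RPKM, GstE13 7.69 and 9.82 RPKM, and GstE11 2.73 and 2.08 RPKM. GstE14, also named Noppera-bo, is required in the fly for synthesis of the moulting hormone ecdysone. It was the lowest member, with 1 read in replicate 1, or 0.0268 RPKM, and 0 reads in replicate 2, where 3 reads would give 0.313 RPKM. The levels of GstE14 and GstE10 could not be told apart at this depth.

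Taken per class, the delta genes were lower in the middle than the epsilon genes. The delta median was 2.86 RPKM in replicate 1 but 1.17 RPKM in replicate 2, 1.90 RPKM over both, so it depended on the library. The epsilon median was 6.33 and 5.57 RPKM, 5.94 RPKM over both. Their difference, delta minus epsilon, was -0.90 in replicate 1 and -1.56 in replicate 2 on the log2(RPKM + 1) scale, a mean of -1.23 ± 0.46 (SD, n = 2). It was below 0 in both libraries, but members are not replicates, so no test was made. Both classes spanned nearly silent to abundant genes. At 1 RPKM or more there were 8 of 11 delta and 9 of 14 epsilon genes, and at 5 RPKM or more 4 and 7. Over all genes the shares at these levels were 49.5% and 29.5%.

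The omega genes also sit side by side, in the order GstO3, se, GstO2 and GstO1. All 4 were above 1 RPKM, against 49.5% of all genes. GstO2 had 17.1 and 14.8 RPKM and GstO1 had 6.31 and 6.95 RPKM. The gene se encodes the enzyme that makes the precursor of the red drosopterin eye pigments, and had 4.22 and 1.66 RPKM in replicates 1 and 2. GstO3, next to se, exceeded it by 10.2 and 20.9 times in these libraries, where se rested on 129 and 13 reads. Although the omega class has 4 genes, it held 23.2% of the summed RPKM of the family in replicate 1 and 21.3% in replicate 2. The 11 delta genes held 26.5% and 21.6%, and the 14 epsilon genes 29.0% and 33.2%. Within the omega sum, GstO3 alone gave 43.0 of 70.7 RPKM in replicate 1 and 34.7 of 58.0 RPKM in replicate 2.

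The theta genes belong to a class shared with vertebrates. GstT4 was at 28.0 ± 0.311 RPKM, GstT1 at 10.2 ± 0.863 RPKM, GstT2 at 6.45 ± 0.0491 RPKM and GstT3 at 4.01 ± 0.550 RPKM (SD, n = 2). All 4 were above 1 RPKM, against 49.5% of all genes. GstT1 and GstT2, which are neighbours, differed in both libraries without overlap. Together the 4 theta genes held 15.8% and 18.0% of the family sum.

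The zeta pair was split. GstZ1 was at 3.31 and 3.34 RPKM, while its neighbour GstZ2 was at 0.196 and 0.385 RPKM. GstZ1 exceeded GstZ2 by 16.9 times in replicate 1, where GstZ2 had 9 reads, and by 8.68 times in replicate 2, where it had 4. The sigma gene GstS1, known for its abundance in flight muscle and for clearing products of lipid peroxidation, was low at 1.58 and 1.004 RPKM. Mgstl was at 11.4 ± 0.285 RPKM, a level within the spread of GstE12 and GstE6.

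Transcript rows of a gene mostly had similar values. In several genes each row held nearly the same number of reads, such as 147 on both rows of GstT3 in replicate 1. Close values on such rows follow from those reads and the lengths, and do not show isoforms expressed alike. Of the 9 members with several transcript rows, GstO2 was the exception, at 26.3 and 22.6 RPKM for its NM_139979 row and 7.93 and 6.89 RPKM for its NM_168277 row in replicates 1 and 2. These rows differed by 3.32 times in replicate 1 and 3.28 times in replicate 2. They were close in recovered length, 912 and 932 bases, and rested on 889 and 274 reads in replicate 1. The gene level of GstO2, a median over these rows, lay between them, and its record overlaps that of se. In replicate 1 the highest row of each of the other 8 genes was from 1.08 to 1.45 times its lowest. The rows of GstD1 held nearly the same reads, 1037 and 1045, on lengths of 822 and 1149 bases. GstZ2 rows differed by 2.07 times in replicate 2, on 2 to 4 reads.

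Some members overlap other genes in the Release 6 annotation. These were the pairs se with GstO2 and GstE1 with GstE10 within the family, and GstE9, GstE12, GstE13, GstT2 and Mgstl with genes outside it. Whether counting used strand is not stated, so reads of overlapping genes cannot be told apart.

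The only contrast among these samples was between the replicates, with 1 library a side and hence no replicate check. Over the whole family, 28 of 37 genes were lower in replicate 2. That count takes in genes with few reads, such as GstE14 with 1 read and 0. Its share over all genes is not given here, so the comparison was made at 1 RPKM or more. Of the 28 members at 1 RPKM or more, 21 (75.0%) were lower in replicate 2, against 47.7% of the 7548 genes at that minimum and 48.1% of the protein-coding ones. All 8 delta genes at this level were lower in replicate 2, as were 6 of 9 epsilon, 3 of 4 omega and 2 of 4 theta genes. The median difference of the 28 members, replicate 2 minus replicate 1, was -0.20 on the log2(RPKM + 1) scale, against 0.01 for all genes at 1 RPKM or more, whose SD was 0.29. For the delta genes the median was -0.48. Delta genes are neighbours that may share reads, so they are not separate observations. The libraries differed 3.90-fold in depth, and its part in these differences was not tested. In a bulk culture, fewer expressing cells and less RNA per cell cannot be told apart.

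**Figure D3:**
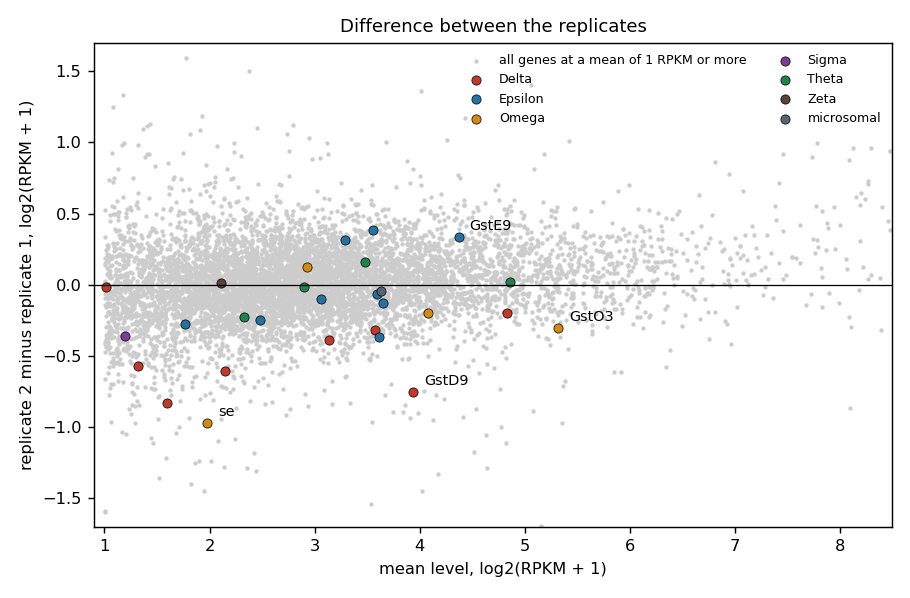
Difference between replicates (replicate 2 minus replicate 1, log2(RPKM + 1) scale) against mean level for genes at a mean of 1 RPKM or more, with members coloured by class and all genes in grey (111 genes fall outside the axes). Names mark the 4 members whose reads differed in the exact binomial test, se, GstD9 and GstO3 below the line and GstE9 above it.

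An exact two-sided binomial test on reads asked whether these differences passed counting error. It was run on the transcript with the most reads of every gene with at least 10 reads, and p-values were adjusted by Benjamini-Hochberg over all 9871 genes. Of the 33 members tested, 4 passed an adjusted p of 0.05, 3 lower and 1 higher in replicate 2, against 13.9% of all genes in either direction, 5.17% lower and 8.71% higher. The share of members, 12.1%, was thus near that of all genes. It says how the pair of libraries differed, with no condition behind it.

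The gene se showed the widest gap among them, with 129 reads in replicate 1 and 13 in replicate 2. Scaled to library size, replicate 2 had 0.393 times the level of replicate 1 (95% exact interval 0.204 to 0.697, adjusted p = 0.00602, exact binomial test). GstD9 fell from 513 to 75 reads, 0.570 times after scaling (0.442 to 0.728, adjusted p = 3.62e-05, exact binomial test). GstO3 had 1404 and 290 reads, 0.806 times (0.708 to 0.915, adjusted p = 0.00802, exact binomial test). GstE9 went the other way, with 529 and 173 reads, 1.28 times (1.07 to 1.52, adjusted p = 0.0475, exact binomial test), with an adjusted p of 0.0679 once replicates were scaled to the same median. The record of GstE9 overlaps that of imd, an immune signalling gene. GstD7, at 76 and 8 reads, had a ratio of 0.411 (0.171 to 0.851) and missed the threshold (exact binomial test, adjusted p = 0.0657). None of the 4 theta genes passed, with ratios of 1.02 (0.891 to 1.16) for GstT4, 0.989 (0.720 to 1.34) for GstT2, 1.13 (0.896 to 1.41) for GstT1 and 0.823 (0.540 to 1.22) for GstT3. The interval of GstT3 holds the ratio of GstO3.

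Of the genes listed for glutathione synthesis and turnover, 8 of 11 with values reached 1 RPKM (72.7%), against 49.5% of all genes. GS and CG32495 were counted once, and the list also holds the reductase gene Trxr-1 and the peroxidase gene PHGPx. The median level of the list was 6.38 RPKM, against 0.898 RPKM over all genes. Gclc and Gclm, the subunits of the enzyme that limits glutathione synthesis, were at 6.44 ± 1.28 and 8.76 ± 0.454 RPKM (SD, n = 2). Glutathione synthetase is encoded by paralogues listed as GS and CG32495, whose values were equal, at 8.19 and 6.12 RPKM. The recovered reads were also the same for both, 651 in replicate 1 and 158 in replicate 2. How reads that fit several copies were counted is not stated, so a separate level of either paralogue is not known. Trxr-1, the thioredoxin reductase that in flies also keeps glutathione reduced, was at 48.5 ± 3.79 RPKM, and the peroxidase gene PHGPx at 37.9 ± 0.122 RPKM. Among genes for gamma-glutamyl transferases, which begin the breakdown of glutathione and its conjugates, CG4829 had 13.0 and 13.3 RPKM, CG1492 1.56 and 1.89 RPKM, and Ggt-1 0.386 and 0.424 RPKM. CG17636 and the glutaredoxin gene Grx-1 were listed at 0 in both, while the glutaredoxin gene CG6852 had 3.53 and 3.15 RPKM. In the exact binomial test Gclc was lower in replicate 2 (adjusted p = 0.00162) and Trxr-1 higher (adjusted p = 0.0293). That was among 10 listed genes tested, with 13.9% of all genes passing.

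All 3 regulators of the antioxidant response were above 1 RPKM, against 49.5% of all genes. The transcription factor gene cnc, fly counterpart of Nrf2 and known activator of GstD1, was at 5.83 and 5.46 RPKM. Its inhibitor Keap1 was at 2.11 and 1.71 RPKM, and its partner maf-S at 13.1 and 19.0 RPKM. The reads of maf-S were higher in replicate 2 (adjusted p = 0.00943, exact binomial test), while the adjusted p of cnc was 0.227 and that of Keap1 0.256. Over all genes 13.9% passed.

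Of 10 transporters of the ABC family, some of which carry conjugates out of cells, 4 reached 1 RPKM (40%, against 49.5% of all genes). Their median level was 0.454 RPKM. MRP had 14.4 and 11.1 RPKM, CG5789 15.96 and 18.04 RPKM, CG7627 8.86 and 8.70 RPKM and CG11897 4.87 and 3.48 RPKM. The other 6 had means between 0.0448 and 0.505 RPKM, and among them were CG10505 at 0.505, CG4562 at 0.407, CG9270 at 0.3997, Sur at 0.227 and CG11898 at 0.174 RPKM. MRP (adjusted p = 9.98e-08) and CG11897 (7.13e-04) were lower in replicate 2 and CG5789 (0.0115) was higher, in the exact binomial test. They were among 9 transporters tested, with 13.9% of all genes passing, and the test compares the pair of libraries only.

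**Figure D4:**
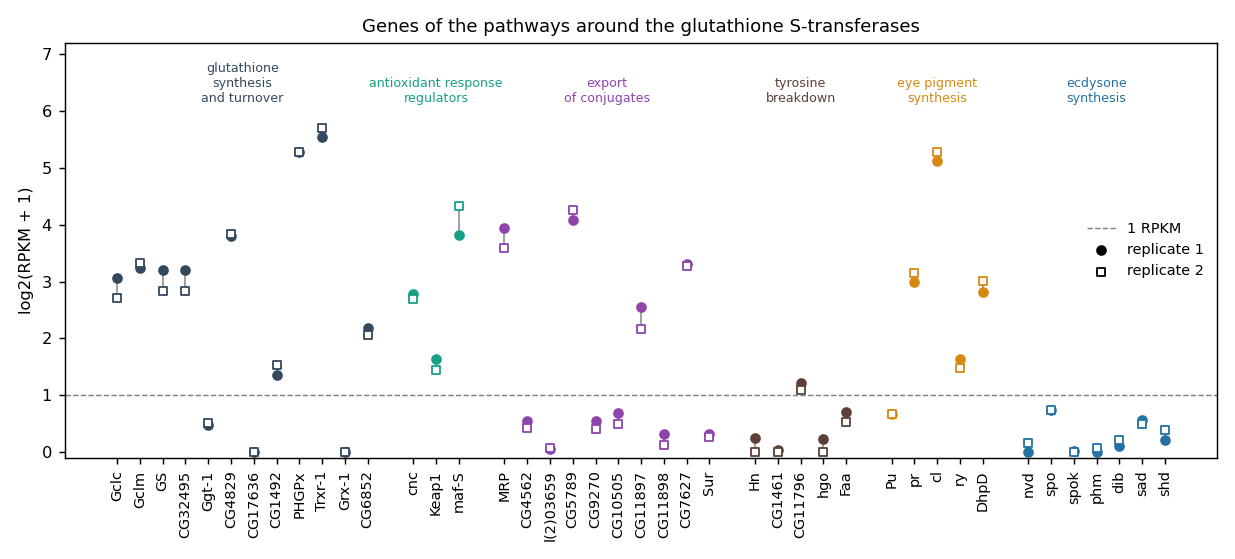
Levels, on the log2(RPKM + 1) scale, of genes in pathways that meet the glutathione S-transferases, with filled circles for replicate 1, open squares for replicate 2 and a dashed line at 1 RPKM. All 7 ecdysone synthesis genes and 4 of 5 tyrosine breakdown genes lay under the line, and 4 of 5 pigment genes lay above it. Over all genes 49.5% had a mean of 1 RPKM or more.

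Each of se, GstZ1, GstZ2 and GstE14 has partners in a named pathway. Tyrosine breakdown, in which the zeta enzymes act, had 1 of 5 genes at 1 RPKM (20%, against 49.5% of all genes). Its median level was 0.0902 RPKM. CG11796, for the dioxygenase that makes homogentisate, had 1.33 and 1.13 RPKM, and Faa, for the last step after the zeta enzyme, 0.627 and 0.445 RPKM. Hn, for phenylalanine hydroxylase, hgo, for homogentisate oxidase, and CG1461, for tyrosine aminotransferase, were at 0.189, 0.168 and 0.0273 RPKM in replicate 1 and listed at 0 in replicate 2. GstZ1, at 3.33 ± 0.0243 RPKM (SD, n = 2), was thus higher than each of these 5 partners in both libraries.

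Pigment synthesis around se had 4 of 5 genes at 1 RPKM (80%, against 49.5% of all genes). Its median level was 6.52 RPKM. Pu, which encodes the entry enzyme GTP cyclohydrolase, was at 0.587 RPKM in both libraries. Further along, the synthase gene pr had 6.91 and 7.88 RPKM, the pterin deaminase gene DhpD 6.06 and 7.02 RPKM and the xanthine dehydrogenase gene ry 2.11 and 1.77 RPKM. The gene cl, which acts with se on the drosopterin precursor, had 33.8 and 38.0 RPKM. Their adjusted p in the exact binomial test between replicates ran from 0.334 to 1. With 13.9% of all genes passing, 0 of 5 says nothing particular about them.

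Ecdysone synthesis, the pathway of GstE14, had no gene at 1 RPKM (0 of 7, against 49.5% of all genes). Its median level was 0.120 RPKM. The highest was spo at 0.679 and 0.674 RPKM, followed by sad at 0.472 and 0.416 RPKM, shd at 0.158 and 0.309 RPKM and dib at 0.0820 and 0.160 RPKM. The genes nvd, spok and phm each had no more than 2 reads in either library.

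Other proteins share the glutathione S-transferase fold without belonging to the classes above. All 5 such genes reached 1 RPKM, against 49.5% of all genes. Ef1gamma, a subunit of a translation elongation factor, was at 167 and 224 RPKM and the chloride channel relative Clic at 100 and 102 RPKM. The neuronal gene fax was at 14.4 and 19.99 RPKM, gfzf at 7.13 and 7.92 RPKM, and CG4623 at 1.34 and 1.32 RPKM. Both libraries of Ef1gamma and Clic lay above both libraries of GstO3, the highest member.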

How the data were processed

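Total RNA of S2 cells was depleted of ribosomal RNA and sequenced as 50 bp single-end reads, which the study aligned with TopHat to release 5 of the genome. The submitters' processing notes list BWA 0.5.9-r16, TopHat2 2.4 and dm3. The deposited values are RPKM, computed by the authors per RefSeq transcript with replicates apart. The program and its treatment of reads with several alignments are not given in the sources used here.

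Members and lists were chosen with earlier results of these data known. Named genes were all 37 members and every gene with values in the lists of pathways and related folds, apart from 1 low transporter that appears by name in the plot alone. Markers of other tissues are given as sums and counts. All 37 symbols were found in both name tables, and 17 older symbols had no values (0 of 17). A pseudocount of 1 was used on the log2 scale, which understates differences of low genes.

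Library size was the largest number for which most lengths came out whole within 0.002 bases (75.6% of 4885 rows, against 37.6% at double the size). Recovered reads may be too low, because a divisor shared by the reads and the length leaves no trace. The recovery and the exact binomial test were tested on simulated data that held counting error and set changes only. Such data cannot show how the test behaves with biological variation between replicates. Replicates are 2 by their labels, and the study calls them biological. Python 3.11.15, pandas 2.3.3 and scipy 1.17.1 were used. Alternatives were another pseudocount, transcript summary, minimum, scaling and each replicate alone.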

Additional observations from a re-analysis of the deposited data

How the results depend on the processing

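No paired analysis was possible because all values came from 1 group and no result compares groups. The median level of the family was 4.56 RPKM, 8.22 RPKM among members at 1 RPKM or more, which leaves out the low genes, and from 4.11 to 5.05 RPKM without replicate 1 or 2. The 28 members at 1 RPKM or more became 18 at a minimum of 5 RPKM, which is stricter, and ranged from 28 to 30 without 1 replicate. GstD4 and GstE4 were above 1 RPKM in replicate 1 alone. The delta minus epsilon difference of -1.23 kept its sign, at -1.60 with a pseudocount of 0.1, -0.92 among members at 1 RPKM or more, and from -1.56 to -0.90 without 1 replicate. The median replicate difference was -0.22 after scaling to the same median. In the exact binomial test, 4 members passed, 3 after scaling, 4 with at least 50 reads (an alternative chosen after seeing the data), and 8 with reads summed over transcripts, which counts reads shared by isoforms repeatedly. That sum added GstD1, GstE13 and GstS1, which have several rows, and GstD7, which has 1 row and unchanged reads and whose adjusted p moved from 0.0657 to 0.0424 with those of the other genes. In replicate 2 depth limits genes under 0.316 RPKM on a transcript of 1 kb, and the limit is higher on shorter transcripts.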
